A study of Homo sapiens with 12 samples.

Results

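The MHC class I presentation genes measured here were 9 of the 58735 genes in the count table: HLA-B, HLA-C, HLA-E and HLA-F, B2M, TAP1, TAP2, TAPBP and NLRC5. They were taken by gene symbol, with no filter on their values, but the list was chosen with earlier results of these data known. Each of the 9 symbols stood on 1 row, and all 9 passed the filter of at least 10 counts over the 12 libraries. RNA came from THP1, an established human leukemia line with monocyte features, in 4 groups of 3 libraries. In mono-culture the THP1 cells were kept alone in endothelial medium. In the other 3 groups they sat for 24 h in a transwell insert above human umbilical vein ECs that had received DMSO (control EC), etoposide (senEC), or etoposide and the green tea catechin EGCG (EGCG-treated senEC). Etoposide is a topoisomerase inhibitor, given to the ECs to make them senescent, and the ECs were washed and replated before THP1 cells were added. The THP1 cells of all 4 groups, mono-culture included, then received LPS (100 ng/ml, 2 h), so no library came from unstimulated cells. The line is wild type by its labels, and a single line in culture is a limited model of a blood monocyte. The labels name replicates but not separate cultures, so the p-values measure the spread between these libraries, which may be technical.

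MHC class I molecules display short peptides from inside the cell to CD8 T cells and natural killer cells. HLA-B and HLA-C encode classical, highly polymorphic heavy chains, HLA-E and HLA-F encode less variable ones, and B2M encodes beta-2-microglobulin, the light chain that pairs with all of them. TAP1 and TAP2 form the transporter that moves peptides into the endoplasmic reticulum, TAPBP encodes tapasin, which holds the empty heavy chain at that transporter, and NLRC5 is a transactivator of class I promoters. In monocytes these genes are known to respond to interferons and, through NF-κB, to inflammatory stimuli.

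On GRCh38 with GENCODE release 29, 7 of the 9 genes lie in the MHC on chromosome 6. Those on the plus strand are HLA-F (chr6:29722775-29738528) and HLA-E (chr6:30489467-30494205). Those on the minus strand are HLA-C (chr6:31268749-31272130), HLA-B (chr6:31269491-31357188), TAP2 (chr6:32821833-32838780), TAP1 (chr6:32845209-32853978) and TAPBP (chr6:33299694-33314387). B2M (chr15:44711487-44718877) and NLRC5 (chr16:56989485-57083531) lie on the plus strand of other chromosomes. All 9 are protein-coding. The HLA-B model spans HLA-C, and the exons of both share 35 bases. Heavy chain genes resemble each other and vary between people, so reads can be placed on the wrong copy or lost, and the counts of the 4 HLA genes are uncertain for that reason. TAP1 shares 456 exon bases (9.49% of its exon length) with PSMB8-AS1 on the opposite strand, which held 4422 counts in all 12 libraries together. TAP2 shares 2064 exon bases (32.3% of its exon length) with AL669918.1 on the same strand, which held 5 counts, so reads there may have been dropped or assigned to either gene, and the level of TAP2 is uncertain. Whether the counting used strand is not stated in the sources used here.

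The promoters show which control sequences these genes share. RefSeq promoter windows on GRCh38.p14 matched 7 of the 9 genes, all but HLA-E and NLRC5. In the 250 bases before the start, 4 motifs were searched on both strands: CCAAT, bound by NF-Y; TGACGT, the core of a cyclic AMP response element; TTTC repeated after any 2 bases, a core of interferon-stimulated response elements; and the 10-base NF-κB consensus. CCAAT was in 5 of the 7 windows (HLA-B, HLA-C, HLA-F, B2M and TAP1) and in 33.0% of all 27305 promoters in the table. The repeated TTTC was in 5 of 7 (HLA-F, B2M, TAP1, TAP2 and TAPBP) and in 3.07% of all promoters. The NF-κB consensus was in 5 of 7 (HLA-B, HLA-C, B2M, TAP1 and TAPBP) and in 9.57% of all. TGACGT was in 0 of 7 and in 7.42% of all. A match is only a match of letters, and bears on no binding in these cells. The windows of HLA-B, HLA-C and B2M are shown because these heavy and light chain genes differed between libraries of different replicate number, as described later. They are cut to the bases before any exon of the same gene, and the capitals mark the motif matches.
HLA-B: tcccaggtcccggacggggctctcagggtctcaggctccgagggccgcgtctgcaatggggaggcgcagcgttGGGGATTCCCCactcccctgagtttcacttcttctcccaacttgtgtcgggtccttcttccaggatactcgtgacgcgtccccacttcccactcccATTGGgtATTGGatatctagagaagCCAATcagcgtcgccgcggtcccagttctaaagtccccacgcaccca
HLA-C: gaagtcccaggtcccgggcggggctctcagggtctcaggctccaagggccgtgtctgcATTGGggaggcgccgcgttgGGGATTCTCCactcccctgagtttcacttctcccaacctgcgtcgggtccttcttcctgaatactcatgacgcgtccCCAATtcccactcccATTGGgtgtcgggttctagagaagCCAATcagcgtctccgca
B2M: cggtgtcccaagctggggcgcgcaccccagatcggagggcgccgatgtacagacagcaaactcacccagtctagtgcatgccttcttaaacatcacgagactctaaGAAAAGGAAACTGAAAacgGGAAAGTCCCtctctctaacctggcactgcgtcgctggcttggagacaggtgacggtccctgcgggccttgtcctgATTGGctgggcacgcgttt
They cover chr6:31357189-31357429 (minus strand), chr6:31272131-31272342 (minus strand) and chr15:44711267-44711486 (plus strand). HLA-B carried 3 CCAAT matches, and its 2 NF-κB matches overlap on GGGGATTCCCC. HLA-C, which shares much of that stretch, carried 4 CCAAT matches and 1 NF-κB match. B2M carried 2 overlapping interferon-type matches in GAAAAGGAAACTGAAA, followed by 1 NF-κB match. In TAP1 the matches TTTCGATTTC and TTTCGCTTTC overlap, 134 and 128 bases before the start. These are reference letters, not the alleles of the line.

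The 12 libraries held 15439836 to 22092600 counts each. At that depth the members were covered by 50 counts (HLA-F in 1 library) to 29493 counts (B2M in 1 library), and every member but HLA-F had at least 851 counts in each library. Levels are given as CPM, counts scaled to the library size with TMM factors, and a gene was called changed at an edgeR adjusted p under 0.05. The label of the cells was checked against a list of 14 THP1 markers. CSF1R, TLR4, SPI1 and CD33 were above 20 CPM in every library, but CD68 and CD86 had 84 and 25 counts in all 12 libraries together. Of 20 endothelial markers, SOX17 and MMRN1 had 0 counts, and the summed level of the list, 159 to 247 CPM, came mostly from PECAM1 (129 to 217 CPM), which monocytic cells also express.

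Compared per length, the light chain was the most abundant member and HLA-F the least. Over the 12 libraries B2M had a mean of 211 FPKM, the CPM per kilobase of exon, and HLA-B 135 FPKM. TAPBP (61.1 FPKM) and HLA-E (55.1 FPKM) followed, then TAP1 (28.6 FPKM) and HLA-C (26.1 FPKM). TAP2 had 14.4 FPKM, NLRC5 10.6 FPKM and HLA-F 1.24 FPKM. Neighbours in this order with close levels overlapped in senEC co-culture, where TAP1 had 30.5 ± 3.08 FPKM and HLA-C 28.1 ± 8.04 FPKM (SD, n = 3 each), and TAPBP had 61.4 ± 6.49 FPKM against 59.6 ± 11.3 FPKM for HLA-E. With control ECs the first pair was apart, with 28.4 ± 0.611 FPKM for TAP1 and 23.7 ± 1.07 FPKM for HLA-C (SD, n = 3 each). The order depends on the length used in 1 place, since with the longest coding transcript NLRC5 (19.2 FPKM) stood above TAP2 (16.2 FPKM).

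The main question of the design is whether senescence of the ECs, and EGCG given to them, changed the THP1 cells. For the members, the heavy and light chain genes were higher on average with senECs than with control ECs, but their libraries overlapped. HLA-B had 308, 398 and 394 CPM in control EC replicates 1, 2 and 3, and 326, 475.5 and 568 CPM in senEC replicates 1, 2 and 5. Replicate 1 was the lowest in both groups, and senEC replicate 5 the highest of all 12. The fold change of HLA-B was 1.25 (95% confidence interval 0.955 to 1.62, adjusted p = 0.731, edgeR with Benjamini-Hochberg adjustment). HLA-C had 57.1, 62.3 and 58.5 CPM with control ECs, and 52.4, 66.5 and 92.2 CPM with senECs, which held both the lowest and the highest of these 6 values. HLA-E had 128, 155 and 167 CPM with control ECs and 148, 169 and 214 CPM with senECs, again with overlap. B2M had 1045, 1195 and 1322 CPM with control ECs and 1034, 1364 and 1782 CPM with senECs. As for HLA-C, the lowest and the highest of these B2M values were both from senEC libraries.

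Of the 9 members, 0 were called between senECs and control ECs, where edgeR called 0% of all genes tested, and 0 had an unadjusted p under 0.05, against 6.61% of all genes. DESeq2 also called 0 of the members. In 0 members did all senEC libraries lie above (5.31% of all genes) or below (5.66%) the control EC libraries. The median log2 fold change of the 9 was 0.10, against -0.01 for all genes, and the range ran from -0.02 for TAP2 to 0.32 for HLA-B. The median depended on a single library: without senEC replicate 1 it was 0.35, and without senEC replicate 5 it was 0.05. The smallest intervals were those of the transporter and its partners. For TAP1 the fold change was 1.08 (95% interval 0.936 to 1.24), and for TAP2 it was 0.989 (0.853 to 1.15). HLA-F, with its low counts, had a fold change of 1.04 with a wide interval of 0.603 to 1.79. The summed endothelial markers were also higher with senECs (201, 240.3 and 223 CPM) than with control ECs (178, 183 and 159 CPM), without overlap. Most of that sum is PECAM1 (log2 fold change 0.40, edgeR adjusted p = 0.728). Of the 15 endothelial genes tested, 6 had a positive log2 fold change, and the median of the 15 was -0.30. The part of the endothelial markers in the class I values was not tested.

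EGCG given to the senECs moved no member past the threshold. With EGCG-treated senECs, replicates 1, 2 and 5 had 344, 517 and 467 CPM of HLA-B and 1001, 1462 and 1344 CPM of B2M. These values lie inside the senEC range for HLA-B, and the lowest B2M value is just below it. Against senECs the fold change was 0.969 (0.743 to 1.26) for HLA-B and 0.911 (0.706 to 1.17) for B2M, with an adjusted p of 1 in edgeR for all 9 members. edgeR called 0 of 9 members and 0% of all genes, and 0 of 9 had an unadjusted p under 0.05, against 2.22% of all genes. The libraries of both groups overlapped for all 9 members, so 0 were apart upwards (3.17% of all genes) or downwards (2.31%). The median log2 fold change was -0.06, against 0.00 for all genes, and it turned to 0.08 without senEC replicate 5. Compared with control ECs, 0 of 9 members were called (0% of all genes) and 0 of 9 had an unadjusted p under 0.05 (4.55% of all genes), with a median of 0.10, and 0 were apart upwards (4.04%) or downwards (5.45%). In both comparisons DESeq2 called 0 members as well. Against control ECs the fold change of HLA-B was 1.21 (0.926 to 1.57) and that of TAPBP 1.11 (0.959 to 1.29), intervals that include both no change and a moderate increase.

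**Figure D1:**
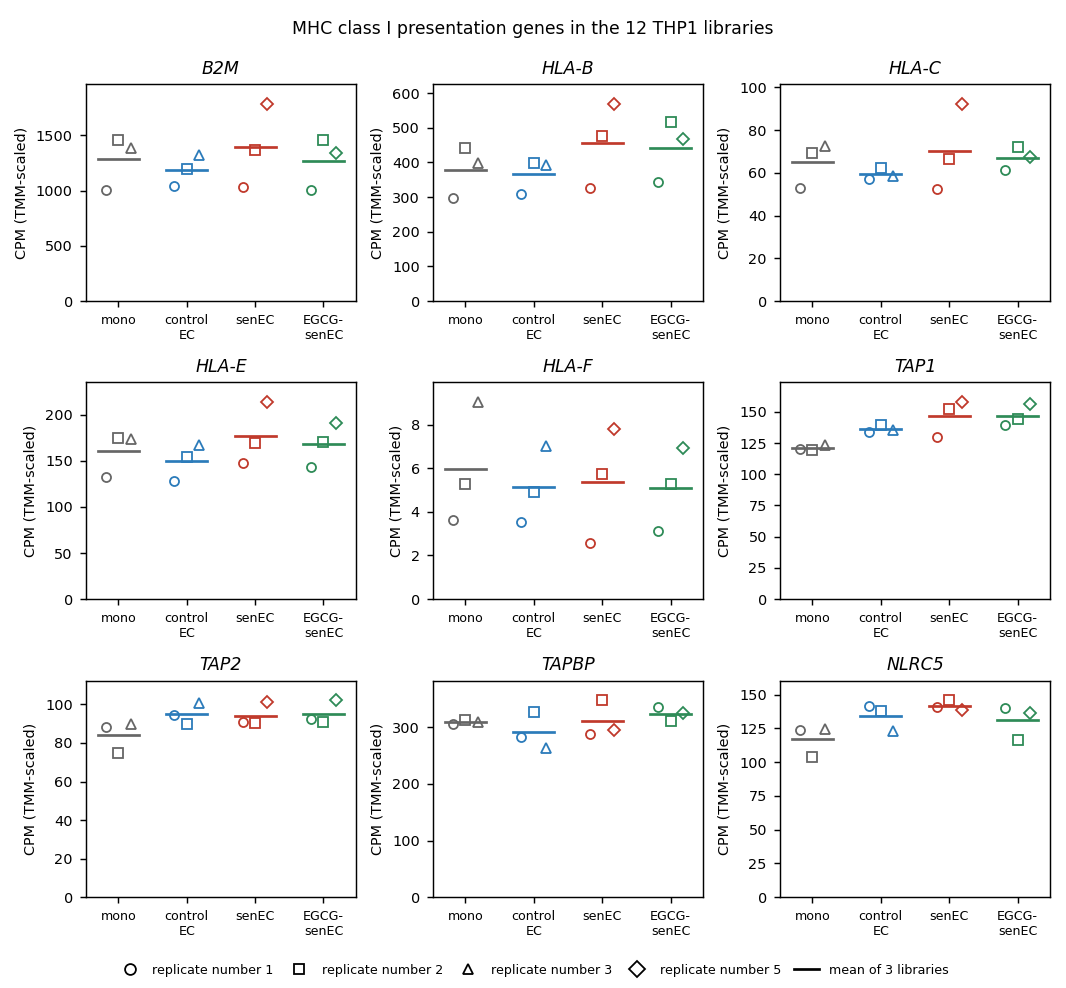
CPM of each member (vertical axes, from 0) in the 12 libraries, by culture group on the horizontal axes. Each point is 1 library with its replicate number as the shape, and bars are means of 3 libraries. For B2M and the 4 HLA genes the circle of replicate number 1 is the lowest of each group, and for TAP1 and TAP2 the mono-culture points lie below all co-culture points.

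The co-culture libraries did not overlap those of mono-culture for the transporter genes, while for the heavy chain genes they did. Whether the changes of these genes differ was not tested. With senECs against mono-culture the log2 fold change was 0.28 for TAP1, 0.16 for TAP2 and 0.27 for HLA-B. TAP1 had 120.1, 119.7 and 123 CPM in mono-culture replicates 1, 2 and 3. It had 134, 139 and 136 CPM with control ECs, 129.8, 152 and 158 CPM with senECs, and 139, 144 and 156 CPM with EGCG-treated senECs. All 9 co-culture libraries were above the 3 of mono-culture, and the mono-culture values lay within 4 CPM of each other. TAP2, the other subunit of the transporter, had 88.5, 74.6 and 89.8 CPM in mono-culture. Its co-culture values were 94.8, 89.9 and 101 CPM with control ECs, 91.0, 90.2 and 101 CPM with senECs, and 92.4, 90.9 and 102 CPM with EGCG-treated senECs. These again all exceeded mono-culture, but the lowest, control EC replicate 2, was nearly tied with mono-culture replicate 3 (89.94 against 89.84 CPM). These 2 of 9 members were apart upwards in this way, as were 1.77% of all genes, and 0 members were apart downwards (1.64%).

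For TAP1 the fold change against mono-culture was 1.13 (95% interval 0.980 to 1.29) with control ECs, 1.21 (1.05 to 1.39) with senECs and 1.21 (1.05 to 1.39) with EGCG-treated senECs. The edgeR adjusted p was 0.816, 0.291 and 0.394 in this order, so TAP1 was called in none of the 3 comparisons, which share the same 3 mono-culture libraries. For TAP2 the fold changes were 1.13, 1.12 and 1.13, with adjusted p of 0.828, 0.611 and 0.652 from edgeR. A contrast of the 3 co-cultures together with mono-culture was added after these values had been seen. In it TAP1 was 1.18-fold higher (1.05 to 1.33, log2 fold change 0.24, SE 0.08), with an adjusted p of 0.240 in edgeR and 0.0635 in DESeq2. The same contrast gave 1.12-fold for TAP2 (0.996 to 1.27, edgeR adjusted p = 0.484) and 1.16-fold for NLRC5 (1.02 to 1.31, edgeR adjusted p = 0.380). It called 0 of 9 members and 0.723% of all genes, and 2 of 9 (TAP1 and NLRC5) had an unadjusted p under 0.05, against 10.7% of all genes.

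NLRC5 had 124, 104 and 124 CPM in mono-culture, 142, 138 and 123 CPM with control ECs, 141, 146 and 139 CPM with senECs, and 140.1, 117 and 136 CPM with EGCG-treated senECs. Its senEC libraries were all above mono-culture, while the other co-cultures overlapped it. The fold change with senECs was 1.21 (1.04 to 1.41, edgeR adjusted p = 0.344). TAPBP, the tapasin gene, stayed between 263 and 348 CPM in all 12 libraries, and its fold changes against mono-culture were 0.940 with control ECs (0.810 to 1.09), 1.00 with senECs (0.864 to 1.16) and 1.05 with EGCG-treated senECs (0.901 to 1.21).

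The heavy and light chain genes overlapped mono-culture in all 3 co-cultures. HLA-B had 296, 442 and 399 CPM in mono-culture, and its fold changes were 0.967 (0.742 to 1.26), 1.20 (0.924 to 1.57) and 1.17 (0.895 to 1.52) for control EC, senEC and EGCG-treated senEC co-culture. B2M had 1007, 1459 and 1383 CPM in mono-culture, with fold changes of 0.925, 1.09 and 0.989 in the same order. HLA-C (52.9, 69.3 and 72.7 CPM), HLA-E (133, 175 and 174 CPM) and HLA-F (3.61, 5.28 and 9.03 CPM) in mono-culture likewise overlapped their co-culture values.

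Counted over the members, 0 of 9 were called against mono-culture with control ECs (0.143% of all genes), with senECs (0.309%) and with EGCG-treated senECs (0.213%), and DESeq2 called 0 in each as well. At an unadjusted p under 0.05 the numbers were 0 of 9 (6.52% of all genes), 2 of 9 (TAP1 and NLRC5, against 11% of all genes) and 1 of 9 (TAP1, against 8.58%). Members above mono-culture with no overlap were 2 with control ECs (6.25% of all genes), 3 with senECs (8.18%) and 2 with EGCG-treated senECs (6.4%), and 0 members lay below with no overlap (6.51%, 8.5% and 7.72% of all genes). The median log2 fold changes of the members were -0.09, 0.14 and 0.07, against 0.01, -0.02 and 0.00 for all genes. They ran from -0.20 to 0.0026, from 0.024 to 0.28 and from 0.056 to 0.19 with each library left out in turn, and the first changed sign without control EC replicate 1.

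**Figure D2:**
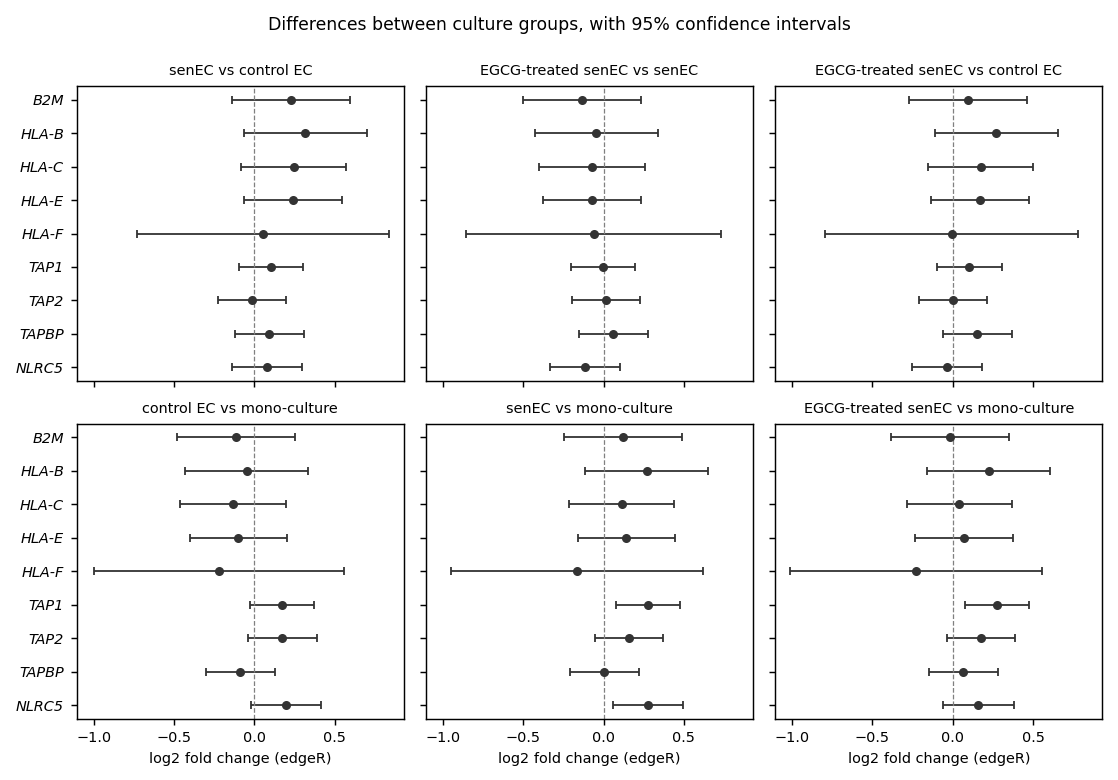
Log2 fold changes of the 9 members (horizontal axes) in the 6 comparisons between culture groups, 1 panel each. Points are edgeR estimates from 3 libraries per group and bars are 95% confidence intervals. The interval excludes 0 for TAP1 in the comparisons of senEC and EGCG-treated senEC with mono-culture and for NLRC5 in senEC against mono-culture, and none of these passed the adjustment over all genes.

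Within the groups the members fell into sets that spread by different amounts. The SD of log2 CPM between libraries of 1 group was 0.31 for HLA-B, 0.24 for HLA-C, 0.22 for HLA-E, 0.46 for HLA-F and 0.30 for B2M. It was 0.09 for TAP1, 0.10 for TAP2, 0.11 for TAPBP and 0.12 for NLRC5. The median over the 9351 genes with a mean of at least 10 CPM was 0.14, and HLA-B was at percentile 95.6 of these genes, B2M at 94.7 and TAP1 at 12.8. For HLA-B the spread of the 4 group means (SD 0.15) was smaller than the spread within groups, as it was for HLA-C, HLA-E, HLA-F and B2M. Means of 3 libraries vary less than single libraries even with no group difference, so a smaller value alone does not show that groups mattered less. TAP1 was the exception among the 9, with an SD of group means of 0.13, while for NLRC5 both values were near 0.12.

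The larger spread followed the replicate number. HLA-B was below 344 CPM in the 4 libraries numbered 1 and above 393 CPM in the 8 others, and B2M was at 1001 to 1045 CPM in the former and at 1195 to 1782 CPM in the latter. HLA-E had 128 to 148 CPM against 155 to 214 CPM, and HLA-F 2.58 to 3.61 CPM against 4.92 to 9.03 CPM. In these 4 genes the libraries numbered 1 did not overlap the others, which held for 2.08% of all genes in that direction. HLA-C had 52.4 to 61.2 CPM against 58.5 to 92.2 CPM, with some overlap. Together the 5 heavy and light chain genes were lowest in number 1 in each of the 4 groups, as were 6.54% of all genes. TAP1 was lowest there in 3 groups, TAPBP in 2, and TAP2 and NLRC5 in 0.

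An edgeR model with the group and the replicate number tested this over all genes. The number was called for 5 of the 9 members, against 9.61% of all genes. These were HLA-B (adjusted p = 8.09e-11), HLA-C (0.00186), HLA-E (2.51e-05), HLA-F (3.05e-08) and B2M (1.80e-09), by edgeR with Benjamini-Hochberg adjustment. The spread in this model was shared almost wholly over all genes, so these p-values measure little of each gene's own spread. The largest adjusted p in any alternative or with a library left out (edgeR or DESeq2) was 0.000164 for HLA-B and 0.00135 for B2M. It was 0.00207 for HLA-E and 0.000725 for HLA-F. Relative to number 1 within the same groups, HLA-B was 1.44-fold higher in number 2 (log2 0.52, SE 0.08), 1.33-fold higher in number 3 and 1.52-fold higher in number 5. B2M was higher by 0.42, 0.42 and 0.58 on the log2 scale, in the same order. HLA-C (1.21, 1.19 and 1.39-fold) and HLA-E (1.21, 1.28 and 1.42-fold) rose by less. HLA-F rose most, by 1.65, 2.41 and 2.36-fold, from the lowest counts of the set. The remaining members, with the transporter, tapasin and the transactivator, had log2 differences between -0.12 and 0.19 and were not called (edgeR adjusted p = 0.728 for TAP1, 0.499 for TAP2, 0.778 for TAPBP and 0.854 for NLRC5). Whether those 4 differ from the other 5 was not tested.

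HLA-C is the least certain of the 5. Its edgeR adjusted p was 0.248 without senEC replicate 1, 0.0592 with at least 10 counts required in every library and 0.0582 with edgeR's own filter. Number 3 occurs only in mono-culture and control EC libraries and number 5 only in the others, so those numbers were compared with number 1 in different groups. The labels do not say that a number marks a shared day or batch, and what the libraries of a number share cannot be told apart from the number itself.

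**Figure D3:**
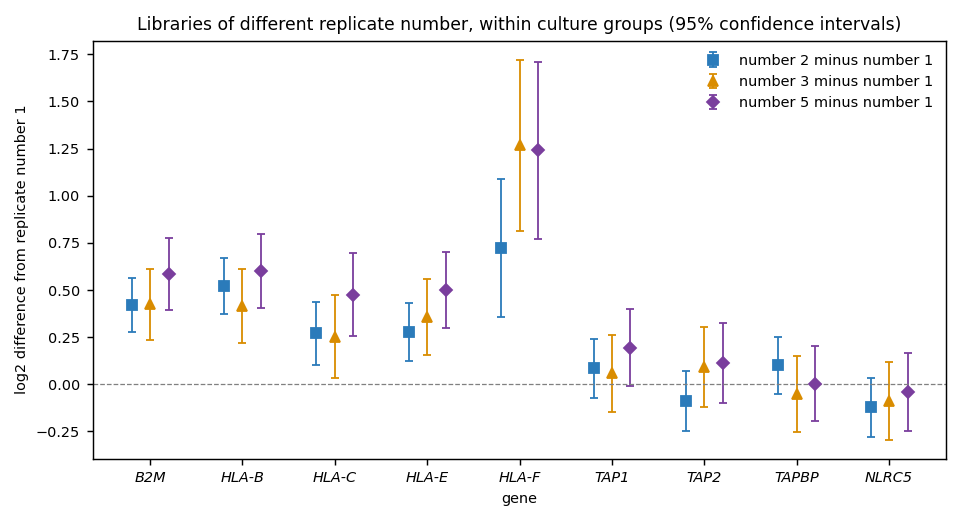
Log2 difference of each member (horizontal axis) from the libraries numbered 1, within culture groups, for the numbers 2, 3 and 5. Points are edgeR estimates and bars are 95% confidence intervals. For B2M, HLA-B, HLA-C, HLA-E and HLA-F all 3 intervals lie above 0, and for TAP1, TAP2, TAPBP and NLRC5 all include 0.

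Summed, HLA-B, HLA-C, HLA-E, HLA-F and B2M took 1493 to 1563 CPM in the 4 libraries numbered 1 and 1815 to 2664 CPM in the others, while TAP1, TAP2, TAPBP and NLRC5 together took 611 to 737 CPM. B2M and HLA-B make up most of the first sum. The log2 ratio of HLA-B to B2M had an SD of 0.11 over the 12 libraries, less than HLA-B alone (0.30) or B2M alone (0.26), and the ratio of HLA-B to TAP1 had an SD of 0.24. HLA-B, HLA-C, HLA-E and B2M were highest in senEC replicate 5, while HLA-F was highest in mono-culture replicate 3 (9.03 CPM). A mean over the 9 members, each centred and scaled over the 12 libraries, was most like GRB2, an adaptor of receptor tyrosine kinases (Pearson r = 0.965), among 9343 genes with at least 10 CPM. The next were HMOX1, the inducible haem oxygenase (0.963), LACTB, a mitochondrial serine protease-like protein (0.954), APMAP (0.950) and CTSH, the lysosomal protease cathepsin H (0.950). These are descriptions over 12 libraries that also share the difference between replicate numbers.

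Other genes of the pathway were read in the same model, against the 9.61% of all genes called for the replicate number. The immunoproteasome subunits PSMB8 and PSMB9 produce peptides that suit class I binding, and PSME1 and PSME2 form their activator. With PSMB10 they make up a list of 5, of which 4 were called for the number, all lowest in number 1 by the model (PSMB8, PSMB9, PSME1 and PSME2). PSMB10 also rose from number 1, but was not called (edgeR adjusted p = 0.0767). PSMB8 had 162 to 186 CPM in the libraries numbered 1 and 198 to 286 CPM in the others, without overlap (edgeR adjusted p = 0.000292 for the number). PSMB9 had 61.2 to 69.1 CPM against 72.5 to 102 CPM (edgeR adjusted p = 0.000596). PSME1 had 86.6 to 99.4 CPM against 98.7 to 161 CPM and PSME2 158 to 183 CPM against 162 to 267.5 CPM, with edgeR adjusted p of 3.36e-05 and 0.00549. Of 6 peptide loading and trimming genes, 2 were called for the number (9.61% of all genes), the chaperone CALR and the disulphide isomerase PDIA3, both partners of the loading complex, with edgeR adjusted p of 2.04e-05 and 0.000429. CALR had 1196 to 1242 CPM in number 1 and 1291 to 1817 CPM in the others. ERAP1, which trims peptides, was not called. Of 16 transcription factors of class I promoters, 2 were called for the number, a share near the 9.61% of all genes. The list's median log2 differences from number 1 were 0.05, 0.08 and 0.07 for numbers 2, 3 and 5, against 0.01, -0.01 and -0.05 for all genes. NFKB1, a subunit precursor of NF-κB and 1 of those called, had 147 to 187 CPM in number 1 and 205 to 354 CPM in the others, without overlap (edgeR adjusted p = 3.79e-24). RELA, which encodes another NF-κB subunit, was not called (edgeR adjusted p = 0.857). Its log2 differences from number 1 were -0.06, 0.11 and 0.02 for numbers 2, 3 and 5. IRF1, a transcription factor induced by interferon, at 46.1 to 61.7 CPM over all libraries, was not called (edgeR adjusted p = 0.917).

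Between the culture groups these 3 lists held 0 genes called by edgeR in all 6 comparisons. For senEC against control EC, 2 of 5 immunoproteasome genes (PSME1 and PSME2) had an unadjusted edgeR p under 0.05, against 6.61% of all genes. By that measure there were 2 of 5 for senEC against mono-culture (11%) and 0 of 5 elsewhere. The peptide loading list had 2, 1 and 2 of 6 against mono-culture in control EC, senEC and EGCG-treated senEC (6.52%, 11% and 8.58%). It had 0 of 6 elsewhere. The 16 transcription factors had 0 to 2 per comparison, against 2.22% to 11% of all genes. For senECs against control ECs, 5 of the 5 immunoproteasome genes had a positive log2 fold change, with a median of 0.23 and a smallest adjusted p of 0.728 in edgeR, and their summed level was 534 to 649 CPM with control ECs and 586, 689 and 887 CPM with senECs. The highest of these was senEC replicate 5, which was also the highest for HLA-B and B2M.

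The summed level of a list of 31 type I interferon genes was lowest in number 1 in each of the 4 groups. In mono-culture and senEC co-culture it was only just the lowest, with 293 against 301 CPM and 336 against 339 CPM for replicates 1 and 2. It was highest in EGCG-treated senEC replicate 5 (604 CPM, against 293 to 409 CPM in the 11 others), where HLA-B, at 467 CPM, was below EGCG-treated senEC replicate 2 (517 CPM) and senEC replicate 5 (568 CPM). OAS3, an antiviral oligoadenylate synthetase, had 113 CPM there and 29.7 to 59.6 CPM elsewhere. The replicate number was called for 14 of the 31 (9.61% of all genes): IFI6, IFI35, IFI44, IFI44L, IFIT3, MX1, OAS1, OAS2, OAS3, OASL, EPSTI1, PARP9, PARP14 and SAMD9L. Their log2 differences of number 5 from number 1 ran from 0.37 for PARP14 to 2.07 for IFI44. Of the 14, 10 were higher than number 1 in each of the numbers 2, 3 and 5. The others were lower in number 2, by log2 differences of -1.10 for IFI44L, -0.44 for IFI44, -0.07 for SAMD9L and -0.05 for MX1. ISG15, a ubiquitin-like protein, had 3.17 to 7.39 CPM and was not called (edgeR adjusted p = 0.153). Against mono-culture, 1 of 31 was called in each co-culture, PARP9, a partner in interferon signalling. It had 8.61 to 14.3 CPM in mono-culture and 23.1 to 35.03 CPM in the 9 co-culture libraries (log2 fold changes of 1.32, 1.35 and 1.40, edgeR adjusted p of 0.00268, 0.00173 and 0.00173). The share of all genes called was 0.143% (control EC), 0.309% (senEC) and 0.213% (EGCG-treated senEC). In this order 2, 9 and 15 of the 31 had an unadjusted edgeR p under 0.05, against 6.52%, 11% and 8.58% of all genes. The list's median log2 fold changes were 0.32, 0.33 and 0.54, against 0.01, -0.02 and 0.00 for all genes. Positive values were found for 25, 23 and 27 of the 31.

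Markers of the cells themselves moved with the replicate number too. Of the 14 THP1 markers 10 were called (9.61% of all genes), 9 of them higher and MPO, a granule enzyme of immature myeloid cells, lower in the later numbers. CD14, the LPS co-receptor, had 5.91 to 16.6 CPM in the libraries numbered 1 and 9.91 to 65.7 CPM in the others (edgeR adjusted p = 8.41e-34). The summed THP1 markers were 1070 to 1177 CPM in number 1 and 1252 to 1644 CPM in the others, and their part in the class I result was not tested. In the 6 comparisons between culture groups edgeR called 1 of these markers, CD14 with senECs against mono-culture (log2 fold change 2.09, adjusted p = 0.0363), where it called 0.309% of all genes. The added comparison of the 3 co-cultures with mono-culture called 2 of the 14, against 0.723% of all genes. Of the endothelial list 15 genes were tested and 2 called for the number (PECAM1 and ANGPT2), a share near the 9.61% of all genes, with summed levels of 169 to 201 CPM in number 1 and 159 to 247 CPM in the others.

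**Figure D4:**
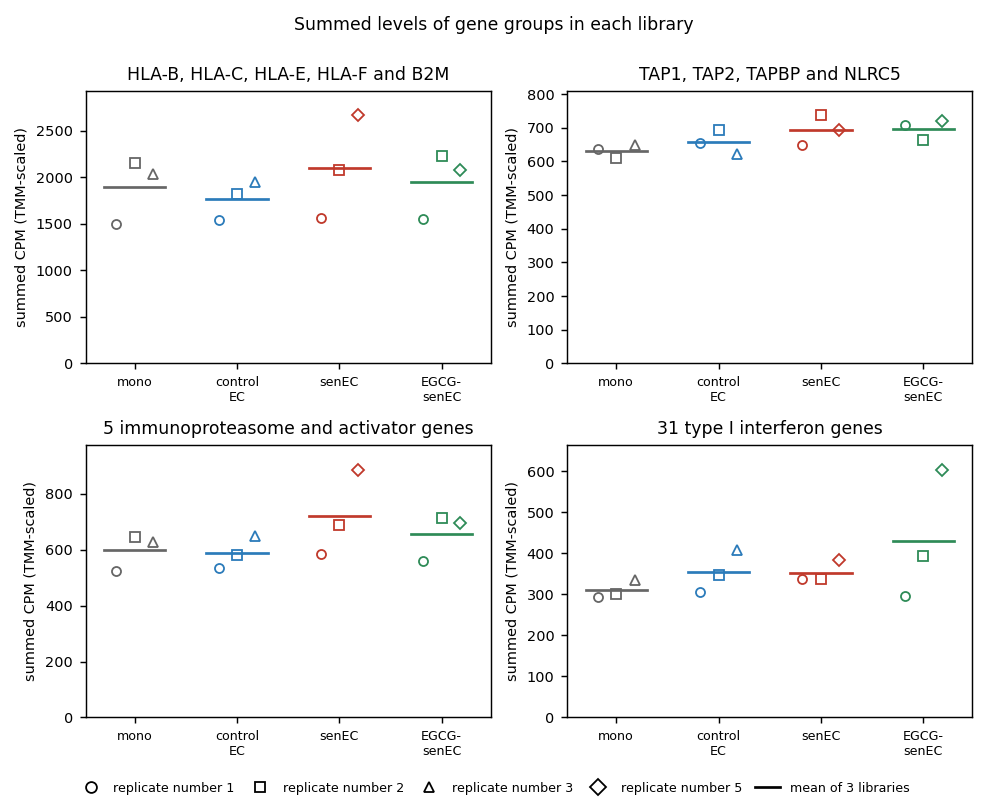
Summed CPM (vertical axes, from 0) of the heavy and light chain genes, of the 4 other members, of the immunoproteasome list and of the type I interferon list in each library, by culture group on the horizontal axes. Shapes give the replicate number and bars are means of 3 libraries. The circles of number 1 are the lowest of each group for the heavy and light chain genes, the immunoproteasome list and the interferon list, and the interferon list is highest in EGCG-treated senEC replicate 5.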

How the data were processed

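The 12 libraries of THP1 cells were sequenced as mRNA libraries of paired reads by a service provider. For each gene symbol the authors deposited a raw count in whole numbers, with no normalization, from reads aligned with HISAT2 to hg38 per the submitters' processing notes. The counting program and its strand setting are not given in the sources used here. Reads that fit several HLA genes may have been dropped or misplaced, which can move the counts of those genes. Libraries were grouped by their labels, and 4 further columns with no described sample were not used. The members and lists were chosen with earlier results of these data known.

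Genes with at least 10 counts over the 12 libraries (25873) were tested with edgeR 4.0.16 in R 4.3.3 (quasi-likelihood, TMM, Benjamini-Hochberg adjustment, 0.05), with all 12 libraries in 1 model of the group. A second model added the replicate number, tested jointly over its levels. Its spread was shared almost wholly over all genes, so its p-values and intervals measure little of each gene's own spread. The SE of a log2 fold change is its size over the root of edgeR's F, and intervals are 95%. Spread and likeness used log2(CPM + 2). FPKM used GENCODE release 29 exon lengths. The counts of the 12 replicate pairs differed by more than sampling noise (chi-square per degree of freedom 10.3 to 38.2). Exact permutation of 3 against 3 libraries cannot go below p = 0.1, so none was used. The scripts were tested on simulated data. All 9 members, the genes called in the 4 pathway lists, and PSMB8, PSMB9, IRF1 and ISG15 were named by rule, and the 5 genes most like the members by correlation. A result that the rule also named is not reported here. ERAP1, RELA and the markers named were chosen after their values were seen. Alternatives were DESeq2 1.42.0, its size factors, other filters on counts, only the 6 libraries compared, a replicate block and each library left out.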

Additional observations from a re-analysis of the deposited data

How the results depend on the processing

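In all 6 comparisons between culture groups, and in the added one of the 3 co-cultures with mono-culture, 0 of the 9 members were called under every alternative run. These were each library left out, a replicate block, a fit of the 6 libraries compared (not run for the added comparison), DESeq2, edgeR with DESeq2 size factors, and 3 filters: no minimum beyond 1 count, 10 counts or more in each library, and edgeR's filterByExpr. Over these the edgeR or DESeq2 adjusted p of TAP1 ranged from 0.0897 to 0.784 with senECs against mono-culture, and from 0.0635 to 0.629 in the added comparison. With the replicate block HLA-B had a fold change of 1.17 (1.03 to 1.34, edgeR unadjusted p = 0.0203, adjusted p = 0.434) for senEC against control EC and 1.15 (1.01 to 1.31, edgeR unadjusted p = 0.0395, adjusted p = 0.971) for EGCG-treated senEC against control EC, intervals that exclude no change where those without the block include it. The estimates were smaller than those without the block (1.25 and 1.21). The block fit shared its spread almost wholly over all genes, so its intervals measure little of the spread of HLA-B itself. The number of all genes called did move: for senEC against control EC, EGCG-treated senEC against senEC and EGCG-treated senEC against control EC, 0 calls each became 114, 14 and 43 with no minimum beyond 1 count, and 153, 13 and 34 with the replicate block. Against mono-culture the 37, 80 and 55 calls became 120, 347 and 230 with DESeq2 and 469, 709 and 424 with the replicate block. The replicate numbers were not taken as pairs, since deviations of libraries with the number 2 correlated by only 0.0930 (mono-culture and control EC) and 0.0703 (senEC and EGCG-treated senEC), against 0.344 to 0.554 for the other numbers, and libraries numbered 2 did not correlate best with their own number.

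The replicate number was called for 4 or 5 members under every alternative and with each library left out. HLA-C was the one lost, at an edgeR adjusted p of 0.0592 with 10 counts or more in each library, 0.0582 with filterByExpr and 0.248 without senEC replicate 1. The cause was not tested.

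The members' median for EGCG-treated senEC against senEC ran from -0.19 to 0.082 with each library left out, and that for EGCG-treated senEC against control EC from 0.055 to 0.22. The members' median log2 fold change for senECs against control ECs was lowest at 0.049 when senEC replicate 5 was left out and highest at 0.35 when replicate 1 was. Some log2 fold changes near 0, none of them called, changed sign. For TAP1 with EGCG-treated senECs against senECs (-0.0013) they were 0.0071 with DESeq2, 0.0067 with its size factors, 0.015 with 10 counts or more in each library, 0.0060 with filterByExpr and 0.00061 with the replicate block. For TAP2 with EGCG-treated senECs against control ECs (0.00015) they were -0.0035, -0.0038, -0.011 and -0.0066 under these first 4 settings, -0.015 with no minimum beyond 1 count, -0.0075 with only the 6 libraries and -0.0077 with the replicate block. For TAPBP with senECs against mono-culture (0.0038) they were -0.023 with 10 counts or more in each library, -0.0080 with filterByExpr and -0.018 with the replicate block, and for HLA-C with EGCG-treated senECs against mono-culture (0.041) -0.021 with the replicate block. With each library left out in turn, log2 fold changes that changed sign ran, for senEC against control EC, from -0.31 to 0.39 for HLA-F and -0.071 to 0.027 for TAP2. In the comparison of EGCG-treated senEC with senEC they ran from -0.24 to 0.14 for HLA-B, -0.25 to 0.17 for HLA-C, -0.19 to 0.085 for HLA-E, -0.40 to 0.31 for HLA-F, -0.31 to 0.082 for B2M, -0.082 to 0.055 for TAP1 and -0.038 to 0.072 for TAP2. In the comparison of EGCG-treated senEC with control EC they ran from -0.30 to 0.27 for HLA-F, -0.019 to 0.23 for B2M, -0.054 to 0.044 for TAP2 and -0.097 to 0.040 for NLRC5. In the comparison of control EC with mono-culture they ran from -0.20 to 0.076 for HLA-B, -0.22 to 0.0026 for HLA-E and -0.50 to 0.21 for HLA-F. In the comparison of senEC with mono-culture they ran from -0.13 to 0.29 for HLA-C, -0.015 to 0.26 for HLA-E, -0.54 to 0.26 for HLA-F, -0.10 to 0.29 for B2M and -0.087 to 0.056 for TAPBP. In the comparison of EGCG-treated senEC with mono-culture they ran from -0.086 to 0.12 for HLA-C, -0.048 to 0.16 for HLA-E, -0.52 to 0.19 for HLA-F and -0.16 to 0.12 for B2M. The cause of these changes was not tested. Each library left out leaves its group with 2, which edgeR fits with the spread shared by all groups.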
